A study of Mus musculus with 13 samples.

Results

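The 9 genes described here are Muc2, Tff3, Fcgbp, Agr2, Spdef and Zg16, which are genes of intestinal goblet cells, and Clca1, Clca3a1 and Clca3b of the Clca family. A gene was taken as measured where at least 1 probe set of the array carried its symbol and no other. Of the 9 genes, 8 were measured among 12393 genes in all, and Muc2 was not. Where a gene had several such probe sets, the one of highest mean level over the 13 arrays stood for it.

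The tissue was mouse duodenum, the stretch of small intestine next to the stomach, and each RNA sample was hybridised to its own Affymetrix array. Wild-type mice and K-Ras mutant mice, called ViRas in the series design, were compared on 3 diets that began at 5 weeks of age and lasted 22 weeks. Normal diet had 2 wild-type and 3 mutant arrays, high-fat diet 2 of each, and high-fat diet plus butyrate 1 wild-type and 3 mutant arrays. Butyrate is a fatty acid that gut bacteria release from fibre. The strain background was mixed in every group, and the labels give neither the mutant allele nor the promoter that drives it. The title of the series names the high-fat diet and oncogenic K-Ras together in intestinal tumour formation, and the groups were compared by genotype and by diet.

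Goblet cells are the mucus-secreting cells of the intestinal epithelium. They fold and glycosylate the gel-forming mucin Muc2 in the endoplasmic reticulum and Golgi, pack it into granules and release it with smaller proteins that shape the mucus layer. Clca proteins are named for calcium-activated chloride channels but are not themselves channels, and Clca1 is a secreted goblet cell metalloprotease that acts on mucus.

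Levels are the authors' RMA values on a log2 scale, so a difference of 1 is a factor of 2 in signal. Array medians lay between 6.04 and 6.14, and precision is limited by how few arrays there are. The epithelial adhesion gene Epcam lay between 12.30 and 12.66 on all 13 arrays. Pdx1 and Gata4, transcription factors of the upper small intestine, read 6.65 to 8.24 and 7.92 to 9.45, whereas the ileal bile acid transporter Slc10a2 read 2.01 to 2.28. Gata4 differed by diet, at 9.15 to 9.45 on the high-fat arrays, 8.15 to 8.56 on normal diet and 7.92 to 8.61 with butyrate. Other tissue varied between arrays. The mean of 15 measured acinar pancreas genes ran from 6.28 to 13.31, and the mean of 6 measured gastric mucous and Brunner gland genes from 5.72 to 11.33. The arrays of each diet carry their own range of identifier numbers, so diet and array series cannot be told apart. Genotypes were compared inside 1 such range.

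The promoters of 4 members are shown because 2 of them, Clca3b and Clca3a1, carried the differences between diets and the other two, Agr2 and Spdef, varied together within groups. They are RefSeq sequences of build GRCm38.p6, 5′ to 3′ on the gene's strand, from 250 bases before to 50 bases after the start of the gene. The table of 32851 promoters held 6 of the 9 members. Capitals mark TTTAT or its reverse complement ATAAA, the core of the motif bound by the intestinal factors Cdx1 and Cdx2, searched on both strands. It occurred 1 time in each of the 4 sequences and in 40% of all promoters, so a match is only a description. TATAAA, whose reverse complement contains TTTAT, was in none of the 4 and in 13.6% of all promoters.
Clca3b promoter, chr3:144849253-144849552, minus strand: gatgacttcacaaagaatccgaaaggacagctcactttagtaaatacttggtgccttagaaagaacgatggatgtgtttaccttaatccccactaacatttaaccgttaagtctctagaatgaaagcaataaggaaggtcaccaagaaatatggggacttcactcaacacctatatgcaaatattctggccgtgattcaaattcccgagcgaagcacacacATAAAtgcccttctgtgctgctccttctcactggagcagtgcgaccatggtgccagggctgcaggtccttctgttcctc
Clca3a1 promoter, chr3:144760928-144761227, minus strand: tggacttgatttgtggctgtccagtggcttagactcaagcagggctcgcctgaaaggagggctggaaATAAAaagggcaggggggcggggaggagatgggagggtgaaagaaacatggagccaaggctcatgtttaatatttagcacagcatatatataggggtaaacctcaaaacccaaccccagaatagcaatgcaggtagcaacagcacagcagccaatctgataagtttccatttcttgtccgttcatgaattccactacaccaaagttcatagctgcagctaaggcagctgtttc
Agr2 promoter, chr12:35992675-35992974, plus strand: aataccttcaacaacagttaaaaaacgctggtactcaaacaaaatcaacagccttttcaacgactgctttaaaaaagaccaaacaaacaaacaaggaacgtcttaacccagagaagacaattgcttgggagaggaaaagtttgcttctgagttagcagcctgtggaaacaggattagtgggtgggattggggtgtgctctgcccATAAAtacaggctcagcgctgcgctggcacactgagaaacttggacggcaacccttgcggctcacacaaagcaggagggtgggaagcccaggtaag
Spdef promoter, chr17:27728902-27729201, minus strand: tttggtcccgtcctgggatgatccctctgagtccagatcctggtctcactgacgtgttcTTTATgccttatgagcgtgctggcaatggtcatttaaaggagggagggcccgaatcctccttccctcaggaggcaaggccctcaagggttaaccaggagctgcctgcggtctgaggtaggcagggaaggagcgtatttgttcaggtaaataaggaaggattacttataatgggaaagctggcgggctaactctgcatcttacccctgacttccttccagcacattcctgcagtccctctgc
GGAT, a core bound by the ETS factor Spdef, was found on either strand 3 times in the Clca3b promoter, 2 times in that of Agr2 and 5 times in that of Spdef. It had 0 matches in the Clca3a1 promoter and occurred in 79.6% of all promoters. GATAA, bound by GATA factors, had 1 match in the Clca3a1 promoter and 0 in the other 3, against 25.4% of all promoters with a match.

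The 8 measured genes differed in how much they varied. Zg16, Tff3 and Fcgbp spanned 0.42, 0.49 and 0.60 over the 13 arrays, Clca1 and Spdef spanned 0.92 and 0.94, and Agr2 spanned 1.86, Clca3a1 2.64 and Clca3b 3.71. The span of Clca3b was above that of 99.4% of all genes, that of Clca3a1 above 98.2% and that of Agr2 above 95.2%. The span of Zg16 was above that of 6.93% of genes, that of Tff3 above 14.6%, that of Clca1 above 67.6% and that of Spdef above 69.2%. The mean level of Zg16 was above that of 99.9% of genes, that of Fcgbp above 99.6% and that of Tff3 above 99.5%. Whether their small spans come from signal near the top of the scale was not tested.

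**Figure D1:**
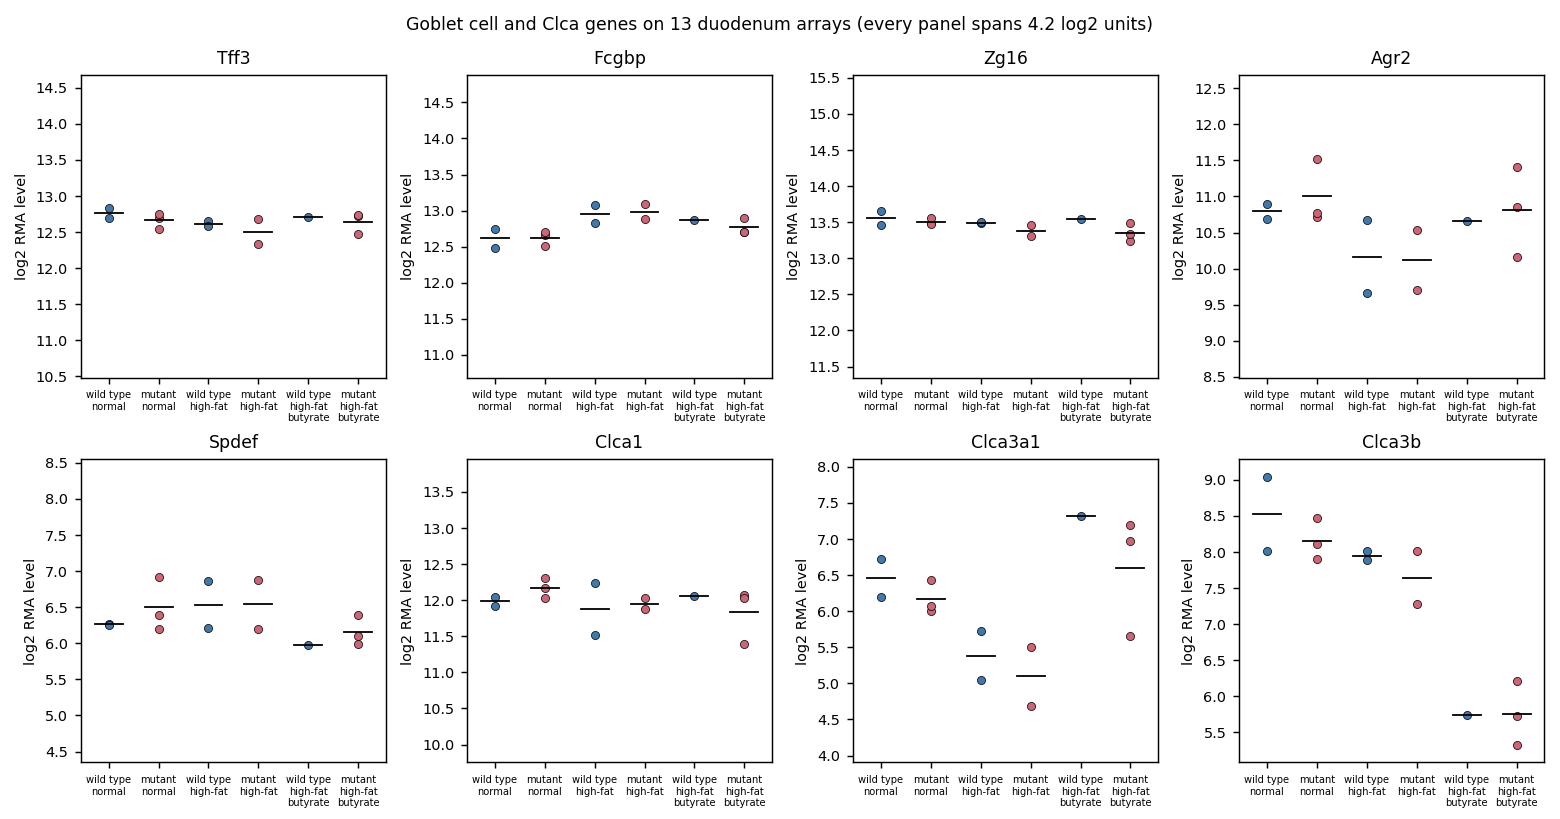
RMA level (log2) of the 8 measured genes on each of the 13 arrays, by genotype and diet; points are arrays (blue wild type, red mutant), bars are group means, and every panel spans the same number of log2 units. Clca3b was between 5.33 and 6.21 on the 4 butyrate arrays and between 7.28 and 9.04 on the other 9.

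Clca3b, a Clca family member of the mouse that lies beside Clca3a1 and Clca3a2 in a cluster of Clca genes on chromosome 3, was lower on butyrate in both genotypes. On normal diet its level was 8.01 and 9.04 on the wild-type arrays and 8.11, 8.47 and 7.90 on the mutant arrays. On high-fat diet it was 7.89 and 8.01 in wild type and 8.01 and 7.28 in mutants. With butyrate it was 5.74 on the wild-type array and 5.72, 6.21 and 5.33 on the mutant arrays. All 4 butyrate arrays lay below all 9 others, which was so for 277 genes, 2.24% of those tested.

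In mutants Clca3b fell by 2.40 (± 0.30 SE, 5.29-fold) from normal diet to high-fat diet with butyrate (3 arrays against 3, limma adjusted p = 0.00304). It was 1 of 195 genes past the threshold of 0.05 in that comparison, 1.57% of those tested, and ranked 21 of 12393 by p. None of the other 7 measured members passed there. Between high-fat diet with and without butyrate it fell by 1.89 (± 0.33, 3.71-fold, limma adjusted p = 0.00271) in mutants, where 21.7% of all genes passed. In wild type, with 1 array against 2, it fell by 2.21 (± 0.44, 4.63-fold, limma adjusted p = 0.00907), where 14.7% of all genes passed. The spread of the single wild-type array is assumed to be that of the other groups.

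These calls of Clca3b held in every fit that left out 1 array and could be made, with limma adjusted p up to 0.0388. With the arrays of the 2 wild-type groups alone, and so 1 residual degree of freedom, the limma adjusted p was 0.147. In the 2 groups on high-fat diet the level of Clca3b differed from normal diet by -0.58 ± 0.36 in wild type and -0.51 ± 0.33 in mutants, neither past the threshold. By group mean the order was wild type and mutant on normal diet, wild type and mutant on high-fat diet, and then both butyrate groups, and the first 4 groups overlapped each neighbour's range. As this is whole tissue, fewer cells that express a gene and less RNA per cell cannot be told apart.

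Clca3a1, another family member, moved the other way on butyrate. On normal diet it was 6.20 and 6.72 on the wild-type arrays and 5.996, 6.07 and 6.43 on the mutant arrays. On high-fat diet it was 5.04 and 5.73 in wild type and 5.51 and 4.68 in mutants. With butyrate it was 7.33 in wild type and 7.19, 5.66 and 6.97 in mutants. The butyrate arrays lay above the high-fat arrays within each genotype, as they did for 45.9% of all genes in wild type and 27.2% in mutants, but mutant butyrate array 2, at 5.66, lay below wild-type high-fat array 2, at 5.73.

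From high-fat diet to high-fat diet with butyrate Clca3a1 rose by 1.51 (± 0.42, 2.85-fold, limma adjusted p = 0.0245) in mutants and by 1.94 (± 0.56, 3.84-fold, limma adjusted p = 0.0398) in wild type. Without mutant high-fat array 2 the mutant difference was 1.096 with limma adjusted p = 0.194, and without mutant butyrate arrays 1 and 3 the limma adjusted p was 0.0821 and 0.0798. The wild-type call was lost without wild-type high-fat array 1 or 2 (limma adjusted p = 0.154 and 0.0593) and without mutant normal diet array 1, 2 or 3 (0.0584, 0.0575 and 0.0533). With the compared groups alone neither call held (limma adjusted p = 0.0867 in mutants and 0.150 in wild type). Against normal diet the mutant butyrate arrays differed by 0.44 ± 0.37, which did not pass (limma adjusted p = 0.589).

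The probe set used for Clca3a1 is of the _x_at type, which can bind related transcripts. On the other probe set of this gene the levels were 3.997 and 4.82 in wild type and 3.87, 4.24 and 3.93 in mutants on normal diet. On high-fat diet they were 3.17 and 3.55 in wild type and 3.74 and 3.42 in mutants. With butyrate they were 4.43 in wild type and 4.17, 3.66 and 4.42 in mutants. The direction between diets was shared, but the butyrate difference was 0.50 in mutants (limma adjusted p = 0.207) and 1.07 in wild type (limma adjusted p = 0.0671). On this other probe set the high-fat minus normal difference passed in wild type, at -1.05 ± 0.29 (limma adjusted p = 0.0411). In mutants it was -0.43 ± 0.27 (limma adjusted p = 0.298). Clca3a2, the neighbouring gene and the only measured one of the 4 other Clca genes listed, read 3.48 and 5.30 in wild type and 3.89, 3.99 and 3.80 in mutants on normal diet. On high-fat diet it read 3.08 and 3.23 in wild type and 2.80 and 2.75 in mutants. With butyrate it read 4.01 in wild type and 3.41, 3.11 and 3.41 in mutants. It passed in none of the 11 comparisons. In the fit of both genotypes with genotype as a term, added after the data were seen, it was lower on high-fat than on normal diet by -1.18 ± 0.25 (limma adjusted p = 0.00346).

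**Figure D2:**
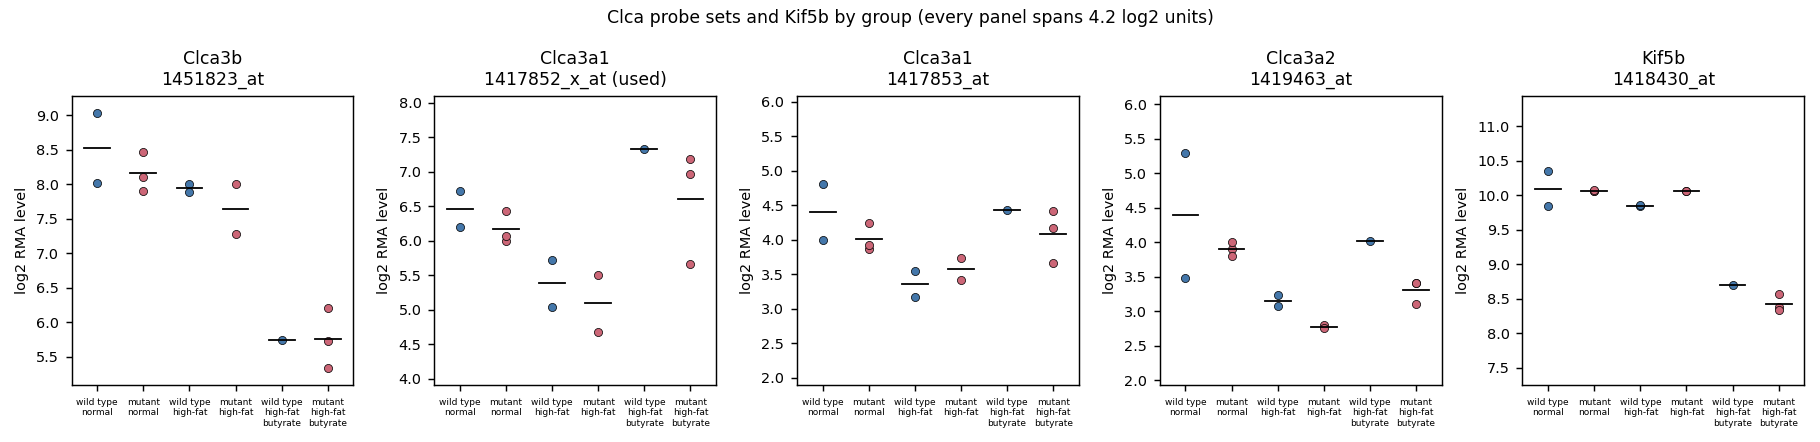
RMA level (log2) of Clca3b, both Clca3a1 probe sets, Clca3a2 and Kif5b on each array by genotype and diet; points are arrays (blue wild type, red mutant) and bars group means. Clca3b and Kif5b are low on the 4 butyrate arrays, and the Clca3a1 probe set in use has its lowest values on high-fat diet.

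Clca1, the secreted goblet cell member of the family, did not differ past the threshold in any comparison. It was 12.05 and 11.92 in wild type and 12.31, 12.17 and 12.03 in mutants on normal diet. On high-fat diet it was 12.23 and 11.52 in wild type and 12.03 and 11.88 in mutants, and with butyrate 12.06 in wild type and 12.07, 12.04 and 11.39 in mutants. Every diet's range overlapped the others. The mutant difference between butyrate and high-fat diet was -0.12 ± 0.22. The other probe set of Clca1 passed in no comparison either, but some signs differed. Its high-fat minus normal difference in wild type was 0.56 ± 0.32, against -0.11 ± 0.24 on the probe set used. Its mutant minus wild-type difference on high-fat diet was -0.28 ± 0.32, against 0.08 ± 0.24.

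Of the secreted mucus proteins, the peptide Tff3 aids repair of the epithelium, and Zg16 is a lectin that binds Gram-positive bacteria. Both varied little on the probe sets used, which are among the brightest of the array. Tff3 was 12.83 and 12.69 in wild type and 12.70, 12.75 and 12.55 in mutants on normal diet. It was 12.65 and 12.59, and 12.67 and 12.34, on high-fat diet, and 12.71 in wild type and 12.73, 12.73 and 12.47 in mutants with butyrate. The lowest value was that of mutant high-fat array 2. Zg16 lay between 13.24 and 13.65 on all 13 arrays. For Zg16 1 of the other 2 probe sets differed by -0.47 ± 0.11 between high-fat and normal diet in mutants (limma adjusted p = 0.0155), against -0.12 ± 0.09 on the probe set used.

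Fcgbp, a large protein of the mucus that was first described as a binder of the IgG Fc region, read higher on each high-fat array than on any normal diet array. On normal diet it was 12.75 and 12.48 in wild type and 12.66, 12.70 and 12.51 in mutants. On high-fat diet it was 13.07 and 12.83 in wild type and 13.09 and 12.89 in mutants, and with butyrate 12.86 in wild type and 12.90, 12.70 and 12.70 in mutants. All 4 high-fat arrays lay above all 5 normal diet arrays, which was so for 9.72% of all genes. The difference was 0.34 ± 0.13 in wild type (limma adjusted p = 0.120) and 0.36 ± 0.12 in mutants (limma adjusted p = 0.0552), and neither passed.

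On the probe sets used, none of the 8 measured members passed between high-fat and normal diet in either genotype. Of all genes, 11% passed there in wild type and 17.7% in mutants. At an unadjusted p under 0.05 there were 2 members in wild type and 3 in mutants, against 26.9% and 31.7% of all genes. With both genotypes in 1 comparison and genotype as a term, a fit added after the data were seen, 3 members passed, against 29.2% of all genes. Fcgbp rose by 0.35 ± 0.08 (limma adjusted p = 0.00602), Clca3a1 fell by 1.08 ± 0.29 (limma adjusted p = 0.0126) and Agr2 fell by 0.77 ± 0.27 (limma adjusted p = 0.0491). In the same fit 32.6% of genes differed between high-fat diet with and without butyrate. Clca3b fell there by 1.98 ± 0.25 (limma adjusted p = 6.45e-05) and Clca3a1 rose by 1.65 ± 0.31 (limma adjusted p = 0.00125).

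**Figure D3:**
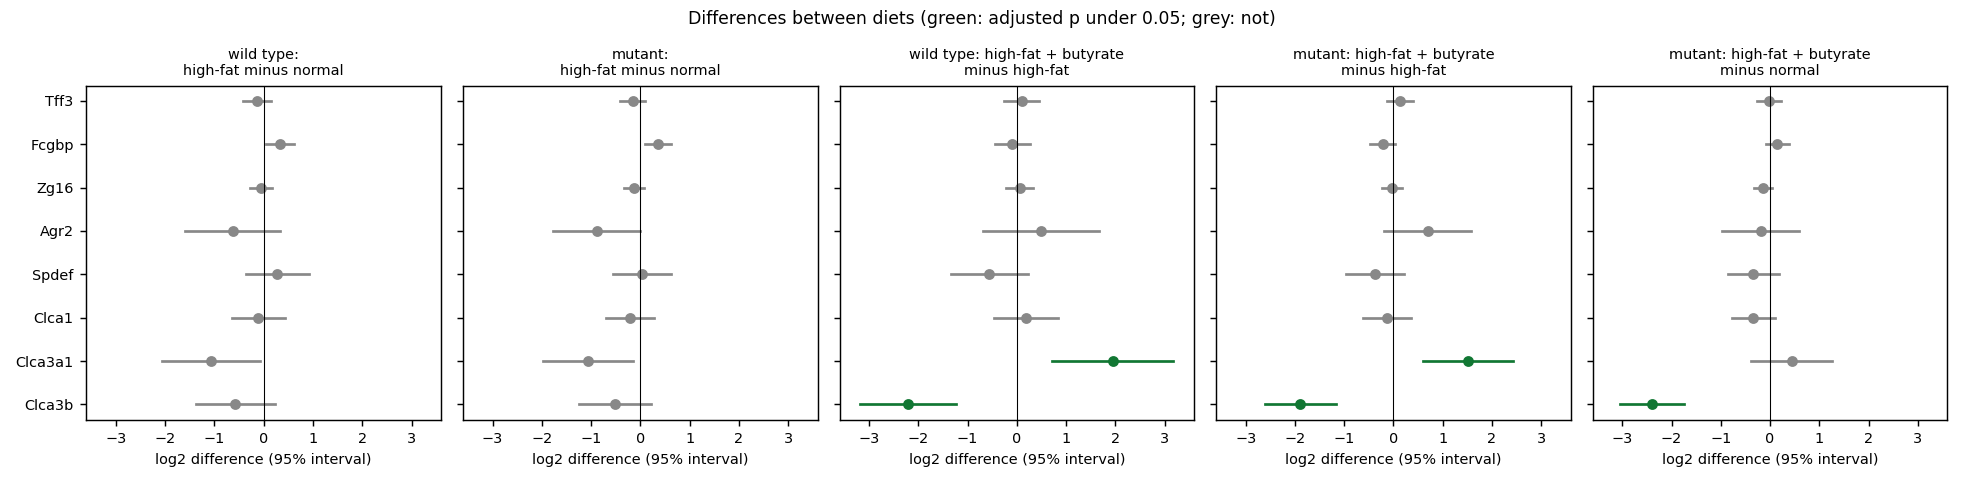
Log2 difference between diets of the 8 measured genes with its 95% interval from limma, in 5 comparisons; green marks an adjusted p under 0.05. Clca3b and Clca3a1 are the only genes in green, on opposite sides of 0 where the diets with and without butyrate are compared.

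Agr2, a disulfide isomerase of the endoplasmic reticulum that goblet cells need to make Muc2, had a standard deviation of 0.54 within groups, against 0.55 over all 13 arrays. It was 10.69 and 10.90 in wild type and 11.52, 10.72 and 10.77 in mutants on normal diet. On high-fat diet it was 10.68 and 9.66 in wild type and 10.53 and 9.70 in mutants. With butyrate it was 10.66 in wild type and 11.41, 10.85 and 10.16 in mutants. The 2 lowest arrays were wild-type and mutant high-fat array 2, whose identifiers carry a number in common that the labels do not explain. The difference between high-fat and normal diet was -0.63 ± 0.44 in wild type and -0.89 ± 0.40 in mutants, neither past the threshold.

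Spdef, the ETS transcription factor that drives goblet cell maturation, was 6.27 and 6.25 in wild type and 6.92, 6.19 and 6.39 in mutants on normal diet. It was 6.87 and 6.21, and 6.88 and 6.19, on high-fat diet, and 5.98 in wild type and 6.39, 6.10 and 5.98 in mutants with butyrate. High and low arrays occurred within the same group. Across deviations from the group means, Agr2 and Spdef correlated with r = 0.92 over 13 arrays that share 6 group means, which is a description only.

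Within the groups where gastric mucous genes varied, the arrays with the highest Agr2 and Spdef were also the highest in those genes. Gkn1, a secreted protein of the stomach surface, read 8.80 to 12.23 on 6 arrays and 4.19 to 5.02 on the other 7. Of the 6, 5 were mutant and 1 was wild type. Of the 4 groups whose gastric mucous list spanned more than 1, the array highest in that list was also highest for Agr2, Spdef and Clca1 in all 4, as it was for 2.94% of all genes. It was highest for Fcgbp in 3 groups, for Tff3, Zg16 and Clca3a1 in 2 and for Clca3b in 1. The endoplasmic reticulum-bound factor Creb3l1 and the granule genes Sytl2 and Rab27b were also highest on it in all 4 groups. These are the genes most correlated over the arrays with Spdef, Agr2 and Clca1, so they are not a separate result. Atoh1, a factor of secretory cell fate, was highest on it in 3 groups. With the list's mean as a covariate, added after the data were seen, the high-fat minus normal difference of Agr2 was -1.17 in wild type (limma adjusted p = 0.0241) and -0.84 in mutants (limma adjusted p = 0.0263). With it Agr2 also differed by 0.91 between butyrate and high-fat diet in mutants (limma adjusted p = 0.0164), and the wild-type butyrate call of Clca3a1 was lost (limma adjusted p = 0.0608). The part of gastric or Brunner gland tissue in these values was not tested.

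**Figure D4:**
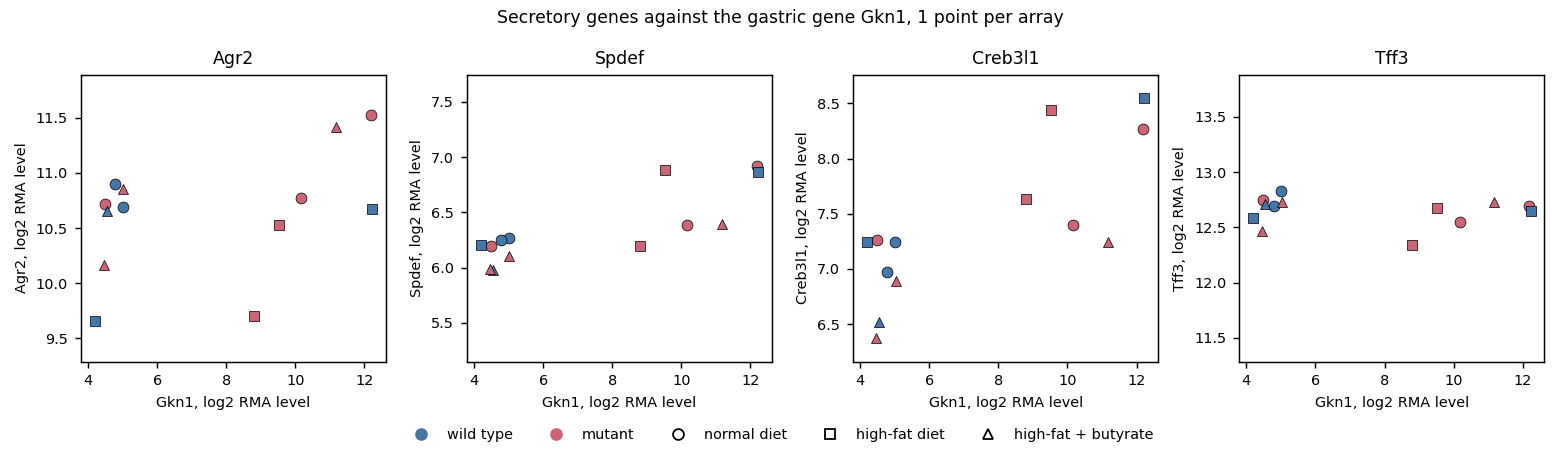
RMA level (log2) of Agr2, Spdef, Creb3l1 and Tff3 on the vertical axes against that of the gastric gene Gkn1, 1 point per array, with colour for genotype and shape for diet. The 6 arrays with Gkn1 of 8.80 or more include the highest values of Agr2, Spdef and Creb3l1, but also mutant high-fat array 2, with Agr2 at 9.70 and Spdef at 6.19. Tff3 lies between 12.34 and 12.83.

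Genotype moved none of the 8 measured members past the threshold. With diet as a term, 0 of 8 passed in limma, where 127 genes, 1.02% of those tested, did. On the probe sets used, 0 of 8 had an unadjusted p under 0.05, as 16.5% of all genes did. The median mutant minus wild-type difference of the members was -0.05, against 0.01 for all genes. The differences were 0.11 ± 0.24 for Agr2 (95% interval -0.40 to 0.61), 0.14 ± 0.16 for Spdef (-0.20 to 0.49) and 0.04 ± 0.14 for Clca1 (-0.25 to 0.34). Tff3, Fcgbp and Zg16 had narrower intervals, from -0.25 to 0.06, -0.16 to 0.14 and -0.23 to 0.02. On its other probe sets Zg16 differed by -0.20 ± 0.08 and -0.26 ± 0.07 (limma adjusted p = 0.211 and 0.0863), larger differences that did not pass either. Clca3a1 differed by -0.40 ± 0.25 (-0.94 to 0.14) and Clca3b by -0.25 ± 0.20 (-0.67 to 0.18), so that changes of some size in these 2 genes lie within the error.

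Within single diets 0 of 8 members passed as well, and 0 had an unadjusted p under 0.05 on the probe sets used. Of all genes 0.0242% passed on normal diet, 0.0403% on high-fat diet and 0% with butyrate, and 12.7%, 11.3% and 6.04% had an unadjusted p under 0.05. The change of the genotype difference from normal to high-fat diet, and from high-fat diet to butyrate, passed for 0 of 8 members and for 0.00807% of genes each. The second of these was -0.43 ± 0.70 for Clca3a1 and 0.32 ± 0.55 for Clca3b, so the butyrate differences of the 2 genotypes were not shown to differ.

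**Figure D5:**
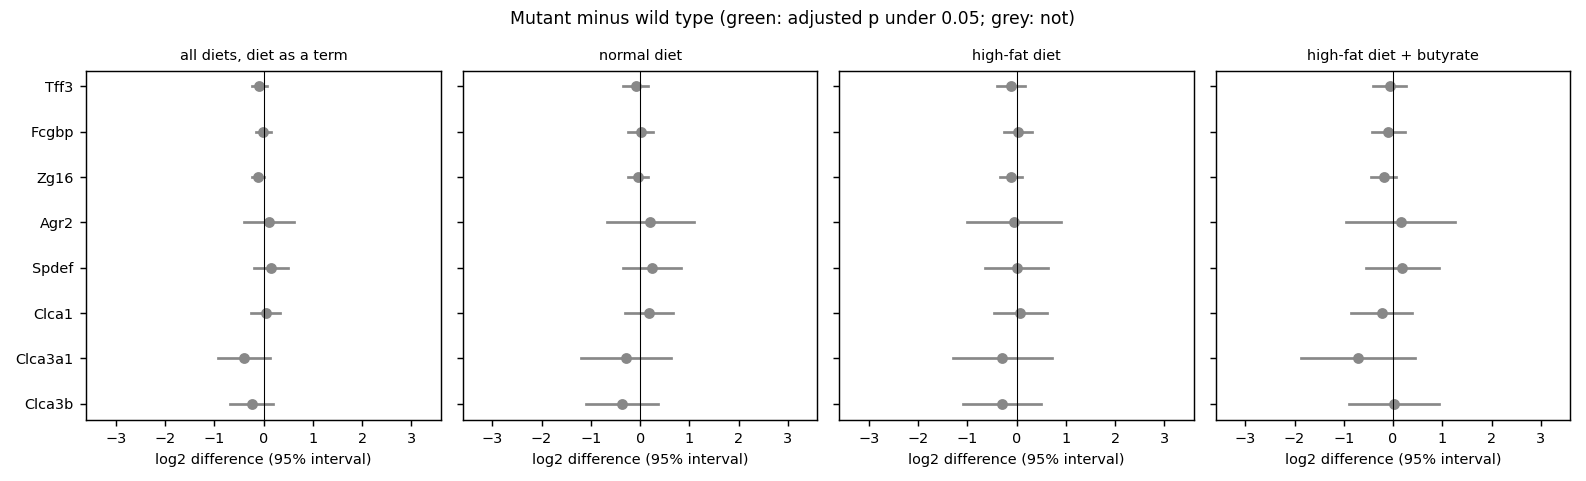
Mutant minus wild-type log2 difference of the 8 measured genes with its 95% interval from limma, over all diets with diet as a term and within each diet. All 32 intervals include 0, and those of Agr2, Clca3a1 and Clca3b are the widest.

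Other genes of the mucus pathway were read from lists. With diet as a term, where 1.02% of all genes passed, 1 of 21 measured goblet cell markers passed between genotypes, the transporter Slc12a8, which was higher in mutants by 0.70 ± 0.15 (limma adjusted p = 0.0471). Of 25 genes for folding and secretion in the endoplasmic reticulum, 1 passed, the chaperone Hsp90b1, lower in mutants by -0.36 ± 0.07 (limma adjusted p = 0.0412). Both calls were lost without any one of the 9 normal and high-fat diet arrays, and that of Slc12a8 also without mutant butyrate array 2 (limma adjusted p up to 0.106 and 0.0910). None passed of 16 other mucin and trefoil genes, 18 factors of secretory cell fate, 16 genes of mucin glycosylation and 13 of ion transport. The nearest of the mucins was the membrane mucin Muc13, at -0.32 ± 0.07 (limma adjusted p = 0.0596).

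Between high-fat and normal diet in mutants, where 7.67% of all genes rose and 10.1% fell, 4 of 21 goblet cell markers fell and 0 rose. They were Scin, an actin-severing protein (-0.83 ± 0.26), Tnfaip8 (-0.79 ± 0.18), the sugar transporter Slc50a1 (-0.65 ± 0.16) and the tyrosine-degrading enzyme Hpd (-0.60 ± 0.14). Of the 16 other mucin and trefoil genes 0 rose and 1 fell, the goblet cell peptide Spink4 (-0.77 ± 0.24). Of 25 folding genes 4 fell and 1 rose. The chaperone Calr rose by 0.61 ± 0.09 (limma adjusted p = 0.00172), and Manf, a secreted protein induced by stress of the endoplasmic reticulum, fell by 0.98 ± 0.17 (limma adjusted p = 0.00303). Fkbp11 (-0.99 ± 0.29) and Creld2 (-0.81 ± 0.16), both of the endoplasmic reticulum, fell as well.

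Of 13 ion transport genes 3 rose and 2 fell in the same comparison. Kcne3, a potassium channel subunit that sustains chloride secretion, fell by 1.37 ± 0.17 (limma adjusted p = 0.000747), and the potassium channel Kcnn4 differed by -0.88 ± 0.19. Vipr1, a receptor for vasoactive intestinal peptide (1.05 ± 0.20), and the anion exchanger Slc26a6 (0.49 ± 0.13) rose. Of 16 glycosylation genes 2 rose, B4galnt2 (0.35 ± 0.07) and Galnt10 (0.59 ± 0.16), and 1 fell, the sialic acid synthase Nans (-0.65 ± 0.14). Of 18 fate factors 1 rose and 1 fell, the Notch ligands Dll4 (0.57 ± 0.14) and Dll1 (-0.38 ± 0.12). The calls of Calr, Manf and Kcne3 held in all 13 fits that left out 1 array. The other named genes each lost their call without mutant high-fat array 1 or 2 and passed in 5 to 12 of the fits (limma adjusted p up to 0.436).

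In wild type, where 11% of all genes passed, 3 of 21 goblet cell markers fell on high-fat diet, Ccl9, a chemokine (-0.91 ± 0.19), Hpd (-0.80 ± 0.16) and Tnfaip8 (-0.70 ± 0.20), and 0 rose. Spink4 (-0.91 ± 0.26) was the only other mucin or trefoil gene past the threshold, and the anion exchanger Slc26a3 (-0.46 ± 0.12) the only ion transport gene. Of the 25 folding genes 2 rose, the sulfhydryl oxidase Qsox1 (1.27 ± 0.23) and Calr (0.44 ± 0.10), and 2 fell, Creld2 (-0.75 ± 0.18) and Manf (-0.65 ± 0.18). Nkx2-2 (0.84 ± 0.20), a factor of enteroendocrine cells, and Dll4 (0.61 ± 0.15) rose among 18 fate factors. Qsox1 held in all 13 fits, and the others each lost their call without wild-type high-fat array 1 or 2 and passed in 3 to 11 fits (limma adjusted p up to 0.219). None of the 16 glycosylation genes passed.

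Regional markers moved in the same comparisons. Of 8 measured, 4 rose and 0 fell on high-fat diet in mutants, where 7.67% of all genes rose and 10.1% fell. In wild type 1 rose, where 5.62% of all genes did. The 4 in mutants were Gata4, Cybrd1, Slc40a1 and the ileal gene Fabp6, and the 1 in wild type was Gata4. Fabp6 was low, at 2.96 to 4.01 on the high-fat arrays. Gata4 rose by 0.84 ± 0.20 in mutants and by 1.02 ± 0.22 in wild type. From high-fat diet to butyrate 3 of 8 fell in mutants (Gata4, Cybrd1 and Fabp6), where 8.78% of all genes fell. In wild type 1 fell (Gata4), where 5.14% of all genes did. Gata4 fell by 0.94 ± 0.20 in mutants and 1.49 ± 0.27 in wild type. The wild-type butyrate call of Gata4 held in all 12 fits, none of which could leave out the only wild-type butyrate array. Its other calls were each lost without at least 1 high-fat array of that genotype. Their part in the goblet cell results was not tested.

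Between high-fat diet with and without butyrate in mutants, where 12.9% of all genes rose and 8.78% fell, 3 of the 21 goblet cell markers rose and 3 fell. Of these, Slc12a8 (-0.86 ± 0.20), the tetraspanin Tspan13 (-0.57 ± 0.12) and Rep15, a binding partner of Rab15 (-0.55 ± 0.13), fell and Tnfaip8 rose (0.70 ± 0.18). Of the 18 fate factors 1 rose and 3 fell. Dll1 rose by 0.63 ± 0.12 (limma adjusted p = 0.00394), while Klf4, a factor of goblet cell differentiation (-0.80 ± 0.20), the epithelial ETS factor Elf3 (-0.72 ± 0.18) and Dll4 (-0.44 ± 0.14) fell. Of the 25 folding genes 2 rose, Manf (0.84 ± 0.17) and Creld2 (0.65 ± 0.16), and Calr fell by 0.93 ± 0.09 (limma adjusted p = 0.000109).

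Of the 13 ion transport genes 3 rose and 2 fell here. Kcne3 rose by 1.44 ± 0.17 (limma adjusted p = 0.000355) and the chloride channel Cftr by 0.63 ± 0.17, and Vipr1 fell by 1.25 ± 0.20 (limma adjusted p = 0.00168) and Slc26a6 by 0.49 ± 0.13. Of the 16 glycosylation genes 1 rose and 1 fell, Galnt3 (0.53 ± 0.17) and Galnt10 (-0.58 ± 0.16), which both start mucin-type glycans. None of the 16 other mucin and trefoil genes passed. The calls of Calr, Dll1, Kcne3 and Vipr1 held in all 13 fits that left out 1 array. The others each lost their call without mutant high-fat array 1 or 2 and passed in 5 to 12 fits (limma adjusted p up to 0.374). This comparison shares its high-fat arrays with that of high-fat and normal diet, so the opposite signs are not independent. The level of Calr was 11.29 to 11.62 on the normal diet arrays, 11.96 to 12.06 on the high-fat arrays and 10.77 to 11.15 on the butyrate arrays.

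In wild type, with 1 butyrate array against 2, 14.7% of all genes passed and 0 of the 21 goblet cell markers did. No fit could leave out that single array. Only the fits without wild-type high-fat array 1 or 2 left out an array of the compared groups. With the arrays of the compared groups alone, no call of this comparison held, those of Calr and Slc26a3 included. Calr fell by 1.25 ± 0.12 (limma adjusted p = 0.000258) and Slc26a3 rose by 0.70 ± 0.15 (limma adjusted p = 0.0108), and both calls held in all 12 fits with an array left out. Qsox1 fell (-1.27 ± 0.29), Dll1 rose (0.61 ± 0.16), Nkx2-2 (-0.92 ± 0.24) and Dll4 (-0.63 ± 0.19) fell, and so did the membrane mucin Muc20 (-0.50 ± 0.15). The glycosylation genes Galnt4 (0.71 ± 0.19) and Uap1 (0.71 ± 0.22) rose. Each of these 7 lost its call without wild-type high-fat array 1 or 2 and passed in 3 to 11 fits (limma adjusted p up to 0.184).

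From normal diet to high-fat diet with butyrate in mutants, 1 of the 21 goblet cell markers changed, where 1.57% of all genes did, a count of 195 that ran from 39 (without mutant normal diet array 3) to 627 (without mutant butyrate array 2). It was Rep15, which fell by 0.66 ± 0.12 (limma adjusted p = 0.0216), a call lost without any one of mutant normal diet arrays 1 to 3 or without mutant butyrate array 1 or 3 (up to 0.0964). The factor Nkx2-2 was the only one of 18 fate factors past the threshold, at 0.74 ± 0.16 (limma adjusted p = 0.0499), and it passed in 1 of 13 fits with an array left out. None of the folding, glycosylation, ion transport and other mucin genes passed there.

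The genes most like a member over the 13 arrays are given by Pearson's r, with no test, since the arrays share diet groups. For Clca3b they were Kif5b (r = 0.96), a kinesin heavy chain, Terf2 (0.93), which binds telomeres, and Thoc3 (0.92). Kif5b lay between 8.35 and 8.70 on the 4 butyrate arrays and between 9.84 and 10.35 on the other 9. For Clca3a1 they were Cip2a (0.94), an inhibitor of protein phosphatase PP2A, Psd3 (0.94) and the DNA damage kinase Atr (0.93). For Spdef they were Creb3l1 (0.94), the protease Bace2 (0.92) and Chad (0.92), and for Agr2 they were Sytl2 (0.92), a Rab27 effector, Fhl1 (0.91) and Mfap5 (0.88). Clca1 was closest to Rab27b (0.92), Tff3 to Ssu72 (0.89), Fcgbp to Zfp36 (0.91) and Zg16 to Lims1 (0.86). The mean of the goblet cell members, Clca1 included, was closest to Creb3l4 (0.94). Members entered that mean centred but not scaled. Agr2, with a standard deviation of 0.55 over the arrays, thus weighed more than Zg16 (0.11), Tff3 (0.13) or Fcgbp (0.19).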

How the data were processed

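RNA of 13 mouse duodenum samples was measured on Affymetrix arrays. The deposited values are log2 levels made with Affymetrix Expression Console 1.1 by RMA, per the submitters' processing notes, and ran from 1.76 to 14.2 over 22690 probe sets. Per the labels' protocols, 200 ng of RNA was labelled with a whole-transcript kit, although the array, by its probe sets, targets transcript 3' ends. The genome build was not given in the sources used here. RMA gives no detection call, so low levels may be background.

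Of the probe sets, 20380 had 1 gene symbol in the platform annotation, and 1 per gene entered the fit of 12393 genes. Fits were made in R 4.3.3 with limma 3.58.1 (lmFit, then eBayes with a trend on level). Tests were two-sided with Benjamini-Hochberg adjustment over all genes at 0.05. All 13 arrays entered each fit, fitted as 6 groups or as diet plus genotype, which left 7 or 9 residual degrees of freedom. The design text calls the samples mice, and p-values cover only the spread among them. The procedure was tested on simulated data.

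Members and lists were chosen with earlier results of these data known. Named were all members, list genes past the threshold (at most 4 per list and comparison) or with a list's smallest p, and the genes most correlated with a member. Values of list genes are given for the mucus lists, and the other lists by counts. Alternatives were quantile normalization, a filter on dim genes, other probe sets or their mean, no trend, array weights, compared groups alone, the replicate block, leaving out each array and, between genotypes, equal weight of diets or no butyrate arrays. The gastric and acinar list means as covariates, and both genotypes in 1 fit, were chosen after seeing the data.

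Same-numbered wild-type and mutant arrays deviated from their group means with correlations of -0.24 and -0.33 (normal diet) and 0.01 (high-fat diet). In a group of 2 arrays the deviations mirror each other, so these values cannot decide whether the numbers pair the mice. The main fits did not pair them.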

Additional observations from a re-analysis of the deposited data

How the results depend on the processing

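Of 2015 member differences under an alternative, 1842 kept their direction and side of the threshold. Newly, 22 passed, 16 no longer passed, 135 changed sign without passing in either fit, and 0 passed with the sign turned. Most of the 2015 passed in neither fit, so 1842 says little about the calls. The butyrate against high-fat call of Clca3a1 was lost in 9 of 23 alternatives in wild type and 6 of 24 in mutants. Clca3b lost 1 such call, in wild type. The fit of both genotypes was counted under each genotype. The count of members past the threshold was not remade with other single probe sets. Under all other alternatives it stayed at 0 in every genotype comparison and in both changes of the genotype difference. Between butyrate and normal diet in mutants it stayed at 1. High-fat against normal diet in wild type had 0 members, 1 with the gastric list covariate (Agr2), 3 with both genotypes in 1 fit and 0 to 1 with an array left out (Clca3a1 without mutant butyrate array 2). In mutants it had 0, with 1 under quantile normalization, 1 under the dim filter and 1 under array weights (Fcgbp each), 1 with the gastric covariate (Agr2), 2 with the compared groups alone, 3 with both genotypes and 0 to 1 with an array left out (Fcgbp without either wild-type normal diet array, Clca3a1 without mutant butyrate array 2). Butyrate against high-fat diet in wild type had 2, with 1 under the gastric covariate, 0 with the compared groups alone and 1 to 2 with an array left out. In mutants it had 2, with 3 under the gastric covariate (Agr2 as well), 1 for the compared groups alone and 1 to 2 with an array left out. Adjusting for the acinar list mean changed no count of members. Outside these counts, the other probe set of Clca3a1 passed between high-fat and normal diet in wild type (limma adjusted p = 0.0411). In mutants 1 other probe set of Zg16 passed there (limma adjusted p = 0.0155). The other probe set of Clca3a1 did not pass between butyrate and high-fat diet in either genotype. The cause of these changes was not tested.

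The replicate block rests on numbers that are not known to pair the mice. With it, high-fat against normal diet had 1 member in mutants (Agr2). Butyrate against high-fat diet had 1 in wild type (Clca3b) and 2 in mutants (Agr2 and Clca3b, with Clca3a1 at limma adjusted p = 0.0623). Comparisons that need the only wild-type butyrate array could not be fitted without it.

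Counts over all genes moved more. With diet as a term the genotype count was 127 and ran from 2 to 574, on normal diet 3 (0 to 174), on high-fat diet 5 (3 to 105) and on butyrate 0 throughout. High-fat against normal diet gave 1368 (116 to 3615) in wild type and 2197 (990 to 3615) in mutants. Butyrate against high-fat diet gave 1820 (0 to 4035) and 2685 (1317 to 4035), and against normal diet 195 (39 to 1307). The changes of the genotype difference gave 1 (1 to 10) and 1 (1 to 2).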

Other observations

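A probe set that the annotation gives to both Clca3a1 and Clca3a2 was left out of the fit. It read 6.88 and 7.78 in wild type and 6.80, 6.54 and 6.94 in mutants on normal diet, while the high-fat arrays read 5.94 and 6.55 in wild type and 6.26 and 5.32 in mutants. With butyrate it read 7.99 in wild type and 7.74, 6.12 and 7.53 in mutants.

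Retnlb, a goblet cell protein that is induced in type 2 immune responses, read 8.39 on wild-type normal diet array 2 and 3.61 to 4.26 on the other 12 arrays. The same array had the highest Clca3b (9.04) and Clca3a2 (5.30) of all 13.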
